A study of Mus musculus with 75 samples.

Results

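The Wnt genes followed here in mouse skin fibroblasts were the secreted antagonists Sfrp1, Sfrp2, Sfrp4, Wif1, Dkk2 and Dkk3, the ligands Wnt5a and Wnt5b, and the pathway targets Axin2 and Lef1. They are 10 of the 24984 genes in the count files. The list was named gene by gene and selected on measured RNA levels of these samples, since it was known that Sfrp2 fell late in culture and that Dkk2 fell with E2f4 overexpression. For that reason the levels of the 10 genes in P7 against P5, P7 against P1 and E2f4 overexpression against its vector, and of Sfrp2 in P5 against P3, are described without a test.

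The cells were C57BL/6 skin fibroblasts brought to replicative senescence by passaging, with 4 RNA-seq libraries per passage (P1, P3, P5, P7), from 2-month-old female mice. ATAC-seq, which marks open chromatin, covered the same passages with 4 samples at P1 and 3 at each later one. The interventions were lentiviral: doxycycline-inducible E2f4 (2 libraries) against a vector with EGFP (2 libraries) in pre-senescent cells, hairpin sh1 against E2f4 in proliferating cells, hairpins sh3 and sh4 against Tead1, and hairpins sh5 and sh6 against Atf3 in pre-senescent or senescent cultures, with 3 libraries for each hairpin and 3 of a non-targeting hairpin (nt) in each experiment. These cells came from 2-month-old or newborn mice, which the labels do not tell apart per library. The total counts lay between 9147324 and 27552949 per library, and levels are given as CPM, counts scaled to library size with TMM factors within each experiment, and with the SD over libraries. The labels do not say whether libraries came from separate cultures, so the p-values measure only the spread between libraries, which may be technical.

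In canonical Wnt signalling, a ligand binds a Frizzled receptor and an LRP co-receptor, beta-catenin is spared from destruction, and with TCF/LEF factors it switches on target genes. Axin2, a scaffold of the destruction complex, is itself a widely used target, so it acts as negative feedback, and Lef1 encodes one of the TCF/LEF factors. Secreted frizzled-related proteins (Sfrp) and Wif1 bind ligands outside the cell, Dkk2 binds the LRP co-receptor, Dkk3 is a divergent family member with little direct action on LRP, and Wnt5a and Wnt5b mostly signal without beta-catenin. In skin, dermal fibroblasts make several of these antagonists, and Wnt activity in the dermis accompanies hair follicle formation.

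The promoters of 3 genes are shown because the levels turn on these genes: Sfrp2, which was lowest at P7, Axin2, which fell from P1 to P3, and Dkk2, which was lowest with E2f4. Each runs from 250 bases before the start site to 50 bases from it on, 5′ to 3′, taken from RefSeq on GRCm38.p6, and 6 of the 10 genes had an entry in that table (Sfrp2, Lef1, Dkk2, Wnt5b, Wif1 and Axin2). The genes span chr3:83765750-83774314 (Sfrp2), chr11:108917828-108950783 (Axin2) and chr3:132085266-132180304 (Dkk2). The windows lie on the + strand at chr3:83766071-83766370 for Sfrp2, chr11:108920099-108920398 for Axin2 and chr3:132085042-132085341 for Dkk2. Capitals mark matches, on either strand, to CTTTGAT or CTTTGAA (TCF/LEF), TTGGCGC or TTCCCGC or TTGCCGC or TTCGCGC (E2F), GGAATG (TEAD), TGACTCA (AP-1) or TGACGTCA (CRE).
Sfrp2: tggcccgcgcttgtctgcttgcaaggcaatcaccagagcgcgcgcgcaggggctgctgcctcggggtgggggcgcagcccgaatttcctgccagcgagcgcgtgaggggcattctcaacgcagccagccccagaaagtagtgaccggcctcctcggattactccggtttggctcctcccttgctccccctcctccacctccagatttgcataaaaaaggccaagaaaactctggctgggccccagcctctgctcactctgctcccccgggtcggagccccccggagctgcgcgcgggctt
Axin2: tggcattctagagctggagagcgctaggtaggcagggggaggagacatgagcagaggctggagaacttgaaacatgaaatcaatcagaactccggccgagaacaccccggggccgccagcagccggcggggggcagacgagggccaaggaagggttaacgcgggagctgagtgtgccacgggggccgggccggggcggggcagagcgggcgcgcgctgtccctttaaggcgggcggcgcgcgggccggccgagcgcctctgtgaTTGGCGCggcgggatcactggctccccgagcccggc
Dkk2: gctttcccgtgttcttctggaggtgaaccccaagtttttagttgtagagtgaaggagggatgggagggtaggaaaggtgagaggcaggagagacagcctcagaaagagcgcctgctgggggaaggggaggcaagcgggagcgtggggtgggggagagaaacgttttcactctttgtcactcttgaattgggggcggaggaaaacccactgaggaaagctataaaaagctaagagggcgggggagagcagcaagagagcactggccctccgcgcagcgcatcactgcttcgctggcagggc

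The Axin2 window held 1 match, to the E2F letters, starting at base 15 from the start site, and the Sfrp2 and Dkk2 windows held none of the motifs. Of all 32544 promoter windows of this length, 9.64% held an E2F match, 8.67% a TCF/LEF match, 14.6% a TEAD match, 5.19% an AP-1 match and 1.80% a CRE match. Among the other windows of the 10 genes, Wif1 held 1 E2F match, the 3 Wnt5b windows held 1 AP-1, 1 TEAD and 1 TCF/LEF match, and the 4 Lef1 windows held none. A match describes the letters only.

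The 10 genes differed widely in level. Per kilobase of exon, the mean levels at P1 were 51.1 CPM for Dkk3, 24.8 for Dkk2, 12.5 for Sfrp1, 10.4 for Sfrp2 and 9.04 for Wnt5a, then 1.96 for Axin2, 1.12 for Wif1, 1.07 for Lef1, 0.955 for Wnt5b and 0.143 for Sfrp4. In that order Sfrp1 and Sfrp2, and Sfrp2 and Wnt5a, differed by less than the SD of Sfrp2 (3.18), and Wif1, Lef1 and Wnt5b differed by less than the SD of Wif1 (0.601). At P7 the order per kilobase was Dkk3 (89.0), Dkk2 (56.8), Sfrp1 (18.2) and Wnt5a (11.6), followed by Wnt5b (0.902), Wif1 (0.761), Axin2 (0.443), Sfrp2 (0.310), Sfrp4 (0.267) and Lef1 (0.235). Here Sfrp1 and Wnt5a differed by less than the SD of Sfrp1 (7.36), Wnt5b and Wif1 by less than the SD of Wif1 (0.308), and Sfrp2, Sfrp4 and Lef1 by less than the SD of Sfrp4 (0.260). Sfrp2 was the fourth of the 10 at P1 and the eighth at P7. Sfrp4 had under 0.5 CPM in all passage libraries except 1 of P7 (1.11 CPM), and with its low counts it did not pass the filter on low counts in this experiment, which 9 of the 10 genes passed. Wnt5b shares exonic positions with the annotated gene Gm52875, and the counting took no account of strand, so its reads cannot be assigned with certainty.

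The first comparison was of P3 against P1. Sfrp2, Axin2, Wif1 and Sfrp1 fell and Dkk2 rose, which is 5 of the 9 genes tested (4 lower and 1 higher) with an adjusted p under 0.05, where 33.4% of all 13442 genes tested passed (2349 lower and 2144 higher). P-values here and below are from edgeR's quasi-likelihood test with Benjamini-Hochberg adjustment over all genes tested.

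Sfrp2 was counted at 44.7, 40.4, 45.0 and 20.7 CPM at P1 and at 8.28, 11.2, 6.19 and 3.15 CPM at P3, so that every P1 library was above every P3 library. The fitted log2 fold change was -2.38 (SE 0.30, adjusted p = 5.8e-06). Axin2 was at 9.86, 9.18, 11.6 and 12.3 CPM at P1 and at 1.64, 1.10, 1.74 and 1.68 CPM at P3, a log2 fold change of -2.79 (SE 0.26, adjusted p = 1.63e-07). Axin2 had the lowest log2 fold change of the 9 genes tested in this step. Wif1, which encodes a secreted Wnt inhibitor with its own ligand-binding domain, was at 1.71, 2.79, 1.23 and 4.27 CPM at P1 and between 0.322 and 0.823 CPM at P3 (log2 fold change -2.28, SE 0.43, adjusted p = 0.000431).

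Dkk2 went the other way. It was at 84.7, 88.7, 74.3 and 125.7 CPM at P1 and at 267.8, 222.6, 218.4 and 268.9 CPM at P3, and no library overlapped (log2 fold change 1.39, SE 0.14, adjusted p = 4.09e-07). Sfrp1 fell from 56.3 ± 4.34 CPM (SD, n = 4) to 31.6 ± 7.82 CPM (log2 fold change -0.83, SE 0.26, adjusted p = 0.0196), a call that was lost without P3 replicate 4, the lowest library (adjusted p = 0.0738). Lef1 went from 4.85 ± 1.25 to 3.18 ± 1.28 CPM and Wnt5a from 77.0 ± 18.4 to 95.8 ± 10.3 CPM, and neither passed (adjusted p = 0.0671 and 0.0886 by edgeR). Dkk3 and Wnt5b did not pass either.

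Markers of other cells moved in the same step. The summed level of 8 keratinocyte genes was 57.5 to 364 CPM at P1 and 1.78 to 4.40 CPM at P3, with 5 of 6 tested lower and Krt15 at 0 at both passages. The 8 macrophage genes summed to 116 to 185 CPM and then to 17.7 to 21.7 CPM (8 of 8 lower), the 8 skeletal muscle genes to 146 to 224 CPM and then to 54.9 to 62.3 CPM (6 of 7 lower, Pax7 at 0 at P3), and the 6 endothelial genes to 153 to 168 CPM and then to 43.8 to 54.4 CPM (5 of 6 lower). The 7 dermal papilla genes, of the signalling cells at the base of the hair follicle, had 4 lower and 1 higher of 6, with sums of 149 to 180 CPM and of 201 to 226 CPM. The 6 Schwann cell and melanocyte genes had 2 higher and 1 lower of 4 tested, with sums of 33.3 to 41.6 CPM and of 57.0 to 77.5 CPM. In bulk RNA, fewer cells of a type and less RNA per cell cannot be told apart, and the part of these cells in the change of the Wnt genes was not tested. The 9 fibroblast genes summed to 22700 to 24600 CPM at P1 and to 31600 to 37200 CPM at P3, none of them at 0. Of these 9 genes 5 were higher and 3 lower. Of 8 proliferation genes 4 were lower and none higher, with sums of 1290 to 1350 CPM at P1 and of 999 to 1200 CPM at P3. The part of growth in the Wnt genes was not tested either.

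Other genes of the pathway, 86 in 5 classes and listed with earlier results of these data known, were also counted. Of 66 tested from P1 to P3, 12 were higher and 16 lower, where 2144 and 2349 of all 13442 genes were. Their median log2 fold change was -0.09, against a median of 0.01 over all genes tested. Among 9 tested targets and feedback genes 4 were lower and 1 higher, including Notum, a secreted enzyme that strips the lipid from Wnt proteins (log2 fold change -5.65, SE 0.55, adjusted p = 2.66e-07 by edgeR), Apcdd1, a membrane inhibitor (-1.19, SE 0.28), and Tcf7, a TCF/LEF factor (-1.13, SE 0.19). Among 8 tested ligands 3 were lower and 1 higher, and Wnt7a, Wnt10a and Wnt16 had log2 fold changes of -4.84, -3.27 and -2.15. Of the R-spondins, which strengthen Wnt signals, Rspo1 fell by 2.34 and Rspo4 by 2.14 on the log2 scale, and Lgr5, a receptor for them, rose (1.38, SE 0.23). In 14 tested receptors, 3 were higher and 1 lower, with Ryk at 0.68 and Ptk7 at 0.39, and Fzd6 at -0.39.

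**Figure D1:**
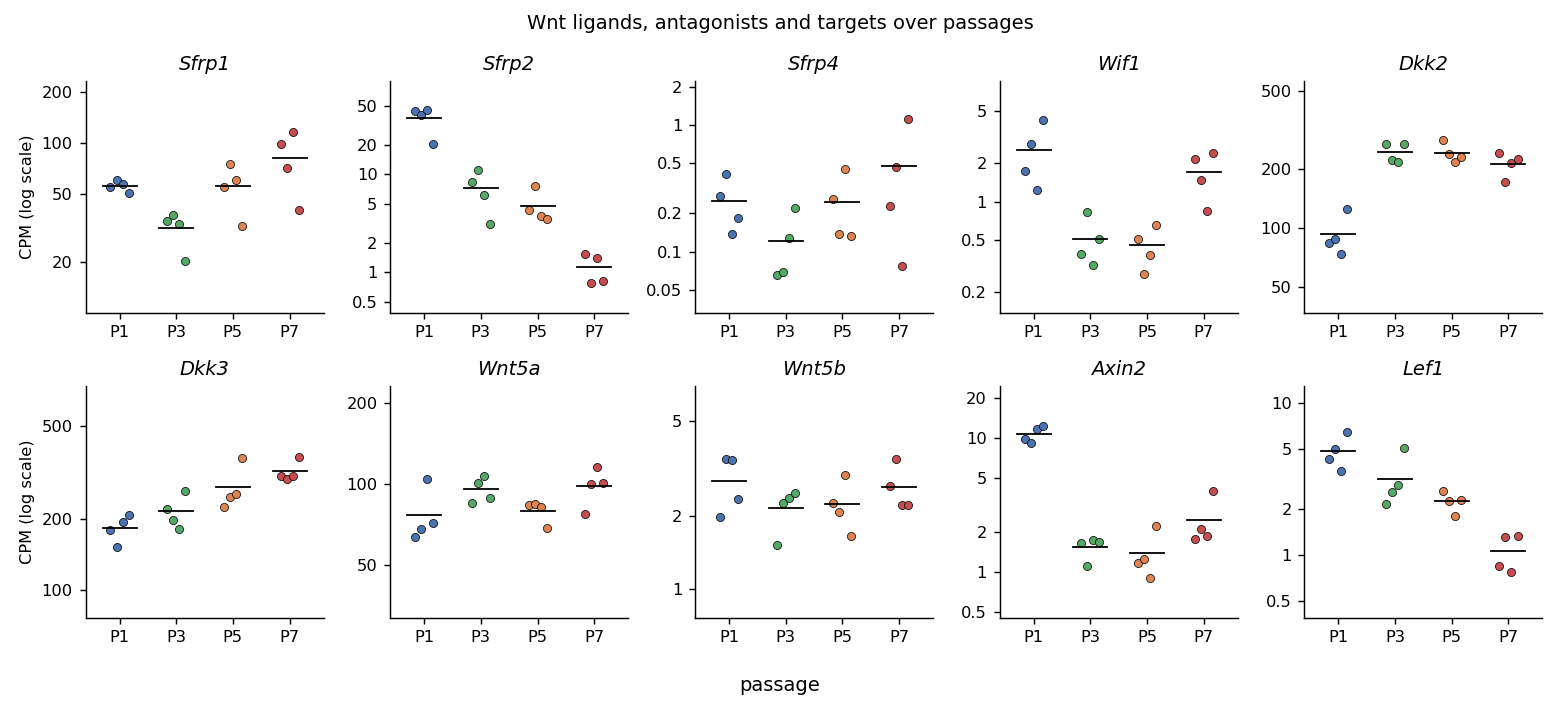
Levels of the 10 genes by passage, in CPM on a log axis, with 1 point per library (4 per passage) and a bar at the mean. Sfrp2 falls from a mean of 37.7 CPM at P1 to 1.13 CPM at P7, Axin2 drops between P1 and P3, and Dkk2 steps up between P1 and P3.

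From P3 to P5, Sfrp1 rose and no other of the 8 genes tested passed. Sfrp1 went from 31.6 ± 7.82 CPM to 55.9 ± 17.5 CPM (log2 fold change 0.82, SE 0.26, adjusted p = 0.0249), 1 of 8 genes, where 28.7% of all genes tested passed. Its libraries overlapped, at 34.9, 38.0, 33.4 and 20.3 CPM for P3 and 55.2, 75.0, 60.4 and 32.8 CPM for P5, and the call was lost without P5 replicate 2, P5 replicate 3 or P3 replicate 4 (adjusted p = 0.0714, 0.0591 and 0.0822). Dkk2, at 244 ± 27.7 CPM and 242 ± 27.7 CPM, did not pass, with a log2 fold change of -0.01 and an interval of 2 SE from -0.29 to 0.26. Dkk3 went from 216 ± 35 to 274 ± 61.8 CPM, and it also did not pass (adjusted p = 0.0723). Sfrp2, described only, was at 4.33, 7.54, 3.75 and 3.51 CPM at P5, within the range of P3.

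In the same step all 8 genes of the proliferation list fell (median log2 fold change -1.15), with sums of 999 to 1200 CPM at P3 and of 350 to 585 CPM at P5. Markers of other cells fell as well, 4 of 6 endothelial genes (sums of 43.8 to 54.4 and of 18.5 to 23.0 CPM), 4 of 8 macrophage genes (17.7 to 21.7 and 10.6 to 12.9 CPM), 5 of 7 tested skeletal muscle genes (54.9 to 62.3 and 30.6 to 58.0 CPM, Pax7 at 0 at both) and 3 of 6 tested dermal papilla genes (201 to 226 and 152 to 189 CPM), and none of these was higher. In the Schwann cell and melanocyte list none of 4 tested passed (57.0 to 77.5 and 40.7 to 85.1 CPM, Dct at 0 at P5). The part of these lists in the Wnt genes was not tested. Of 66 other pathway genes 8 were higher and 9 lower, where 1805 and 2057 of all 13442 genes were. Apcdd1 was lower again (log2 fold change -1.03, SE 0.29), Lgr5 was higher again (0.95, SE 0.23) and Lgr6, its relative, was lower (-1.14, SE 0.20).

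From P5 to P7, the late step, Sfrp2 and Lef1 were lower and Wif1 was higher by more than 2-fold. These are 3 of the 9 genes, where 5.12% of all 13442 genes passed that fold, and since the list was drawn up with this step known nothing is read from the count. Sfrp2 was at 1.53, 0.772, 1.38 and 0.817 CPM at P7, below every P5 library (log2 fold change -2.08, SE 0.42). Lef1 was at 2.65, 2.28, 1.81 and 2.32 CPM at P5 and at 0.840, 1.31, 0.769 and 1.34 CPM at P7, again without overlap (-1.08, SE 0.31), but with 1 library left out the value covered -1.21 to -0.95, and it was under 2-fold without P5 replicate 1, P7 replicate 1 or P7 replicate 3. Wif1 was at 0.517, 0.277, 0.388 and 0.662 CPM at P5 and at 2.14, 1.47, 0.845 and 2.38 CPM at P7, all above P5 (1.87, SE 0.46). Axin2 was at 1.37 ± 0.559 CPM and then at 2.42 ± 1.07 CPM, with P7 replicate 4 the highest at 4.01 CPM, and it passed 2-fold without P5 replicate 4 (1.13).

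All 8 proliferation genes were lower again in this step (median log2 fold change -1.20), with sums of 148 to 189 CPM at P7. At the same threshold, an adjusted p under 0.05, 1031 of all 13442 genes tested were higher and 1223 lower. Of the 6 endothelial genes 2 were lower and none higher, with sums of 11.7 to 15.4 CPM at P7 and none at 0. The 8 macrophage genes summed to 10.6 to 12.9 CPM at P5 and to 23.4 to 27.8 CPM at P7, with none at 0. In this list and in the skeletal muscle and fibroblast lists 1 gene each was higher and none lower. In the keratinocyte list, the dermal papilla list and the Schwann cell and melanocyte list none passed. The part of growth or of other cells in the change of Sfrp2, Lef1 and Wif1 was not tested.

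Over the whole course from P1 to P7, Sfrp2 had a log2 fold change of -5.06 (SE 0.39), Lef1 of -2.18 (SE 0.29), Axin2 of -2.14 (SE 0.25) and Dkk2 of 1.20 (SE 0.14). These are 4 of 9 genes past 2-fold, where 21.7% of all genes were. Nothing is read from the count, since the list was drawn up with the late fall of Sfrp2 known. Sfrp2 at P7 was at 3.01% of its P1 level. Dkk3 was at 183 ± 24.3 CPM at P1 and at 320 ± 33.6 CPM at P7, with every P7 library above every P1 library (0.80, SE 0.14). Sfrp1, Wif1, Wnt5a and Wnt5b overlapped between P1 and P7, so that Wif1, low at P3 and P5, had P7 levels within its P1 range except for 1 library at 0.845 CPM. At an adjusted p under 0.05, 4104 of all 13442 genes tested were higher and 4294 lower between the same passages. By that threshold 8 of 8 proliferation genes, 6 of 6 endothelial genes, 7 of 8 macrophage genes and 6 of 7 tested skeletal muscle genes were lower. So were 5 of 6 tested keratinocyte genes and 4 of 6 tested dermal papilla genes, and none in these lists was higher. Of 4 tested Schwann cell and melanocyte genes 2 were higher and 1 lower, and of 9 fibroblast genes 5 were higher and 4 lower. The part of these lists in the Wnt genes was not tested.

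The ligands passed in neither of the steps tested, P1 to P3 and P3 to P5. Wnt5a lay at 63.8 to 104.1 CPM (P1), 85.4 to 107.6 CPM (P3), 68.6 to 84.2 CPM (P5) and 77.4 to 115.4 CPM (P7), and Wnt5b was at 1.99 to 3.47, 1.51 to 2.49, 1.66 to 2.97 and 2.23 to 3.47 CPM. Wnt5a at P5 lay below every P3 library, but its change did not pass (log2 fold change -0.27, SE 0.14, adjusted p = 0.158 by edgeR). Dkk3 was counted at 180.2, 151.4, 193.6 and 208.5 CPM in the P1 libraries, 220.5, 198.4, 182.3 and 263.0 CPM in those of P3, 225.9, 248.3, 256.5 and 364.5 CPM in those of P5 and 305.1, 297.6, 306.0 and 369.6 CPM in those of P7, and its mean was higher at each later passage.

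Among the other pathway genes, 7 were higher and 7 lower of 66 from P5 to P7, where 1031 and 1223 of all 13442 genes were. Wnt11, another ligand that mostly signals without beta-catenin, was higher (log2 fold change 1.65, SE 0.30, adjusted p = 0.000692 by edgeR), as were Wnt2b (1.36), the secreted antagonist Frzb (0.77) and Nkd2, a feedback inhibitor (0.75). Wnt16 was lower (-1.32). From P1 to P7, 25 were higher and 26 lower, where 4104 and 4294 of all genes were. All 9 targets and feedback genes tested passed, 6 lower and 3 higher, among them Notum (-5.26), Apcdd1 (-2.31) and Tcf7 (-1.50). Rspo1 (-5.21), Rspo4 (-3.73) and Lgr6 (-2.57) were lower too, while 8 of 14 receptors were higher and 3 lower, with Ryk at 0.93, Fzd7 at 0.80 and Ror2, a receptor for Wnt5a, at -1.04.

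The genes most like Sfrp2 over the 16 passage libraries, by Pearson's r of log2 CPM, were Cxcl12 (0.976), Ifi207 (0.971), Clcn6 (0.969), Cilp (0.969) and Pgr (0.968). Cxcl12, a chemokine, went from a mean of 493 CPM at P1 to 82.0 CPM at P7, and Cilp, a cartilage matrix protein, from 39.5 to 1.24 CPM. The genes most like Dkk2 were Flt1 (0.941), Ccdc80 (0.938), Fam20a (0.937), Vldlr (0.932) and Plk2 (0.932). Flt1, a receptor for vascular endothelial growth factor, went from 70.1 CPM at P1 to 181 CPM at P3. The libraries share the same passages, so these values describe likeness over passage only.

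ATAC-seq gave a measure that was not used in choosing the genes. Each peak was ranked among all peaks of its sample by its -log10 p, and the percentile of the strongest peak within 1000 bases of a start site was taken, with 0 for none. The peak lists reached down to a -log10 p of about 2.0, so a called peak can be weak. For Sfrp2 the percentiles at P1 were 30.8, 39.9, 41.5 and 37.0, those at P3 were 6.39, 0 and 12.8, those at P5 were 5.68, 32.4 and 10.3, and those at P7 were 0, 7.98 and 10.6. All P1 samples were above all P7 samples, and a peak was called in 4 of 4 samples at P1 and in 2 of 3 at P7. Axin2 was at 90.1, 91.3, 93.5 and 90.3 at P1 and at 79.8, 75.8 and 84.4 at P7, Sfrp1 at 89.9 to 91.2 at P1 and at 72.9 to 84.0 at P7, and Lef1 at 64.3 to 77.5 at P1 and at 57.2 to 63.8 at P7.

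These 4 genes had all P7 samples below all P1 samples and none of the 10 the reverse. Over 16996 genes with a peak at either passage, 30.0% were lower and 13.4% higher without overlap (43.4% in either direction), so 4 of 10 lies near the share of all genes. By a two-sided exact permutation test of 4 against 3 samples, p was 0.0286 for Sfrp2, Sfrp1 and Axin2, the smallest it can give, and 0.0571 for Lef1. Adjusted by Benjamini-Hochberg over the 10 genes these exact p were 0.0952 and 0.1429, which did not pass. With so few samples an adjusted p under 0.05 was possible only if most of the 10 genes had the smallest p. Not passing is therefore no sign that a peak stayed the same. The pattern also depended on the measure used for ranking. With peaks ranked by fold enrichment, the differences were -23.09 points for Sfrp2, -6.87 for Sfrp1, -7.12 for Axin2 and -1.88 for Lef1. Dkk2 was then at 12.55 points, the other way, with the same adjusted p as Sfrp2 and Sfrp1 (0.0952, exact permutation). The number of peaks was 168982 to 186562 per sample at P1 and 200376 to 231558 at P7, and the part of that number in the percentiles was not tested.

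The width of the window changed the values of Sfrp2 and Dkk2. With 2500 bases on each side, Sfrp2 took in another peak, centred at -2067 bases from its start, and the mean difference went from -31.1 to -2.41 percentile points. For Dkk2 the strongest peak within 1000 bases was centred at -1070 bases from the start, and P7 lay 3.02 points above P1. With 500 bases, the peak over the start site was measured instead, with a difference of -20.18 points (adjusted p = 0.0714, exact permutation). Dkk2 RNA was higher at P7 than at P1. Wif1 stayed at a high percentile in all samples (87.2 to 93.3) while its level at P3 was 20.6% of that at P1.

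**Figure D2:**
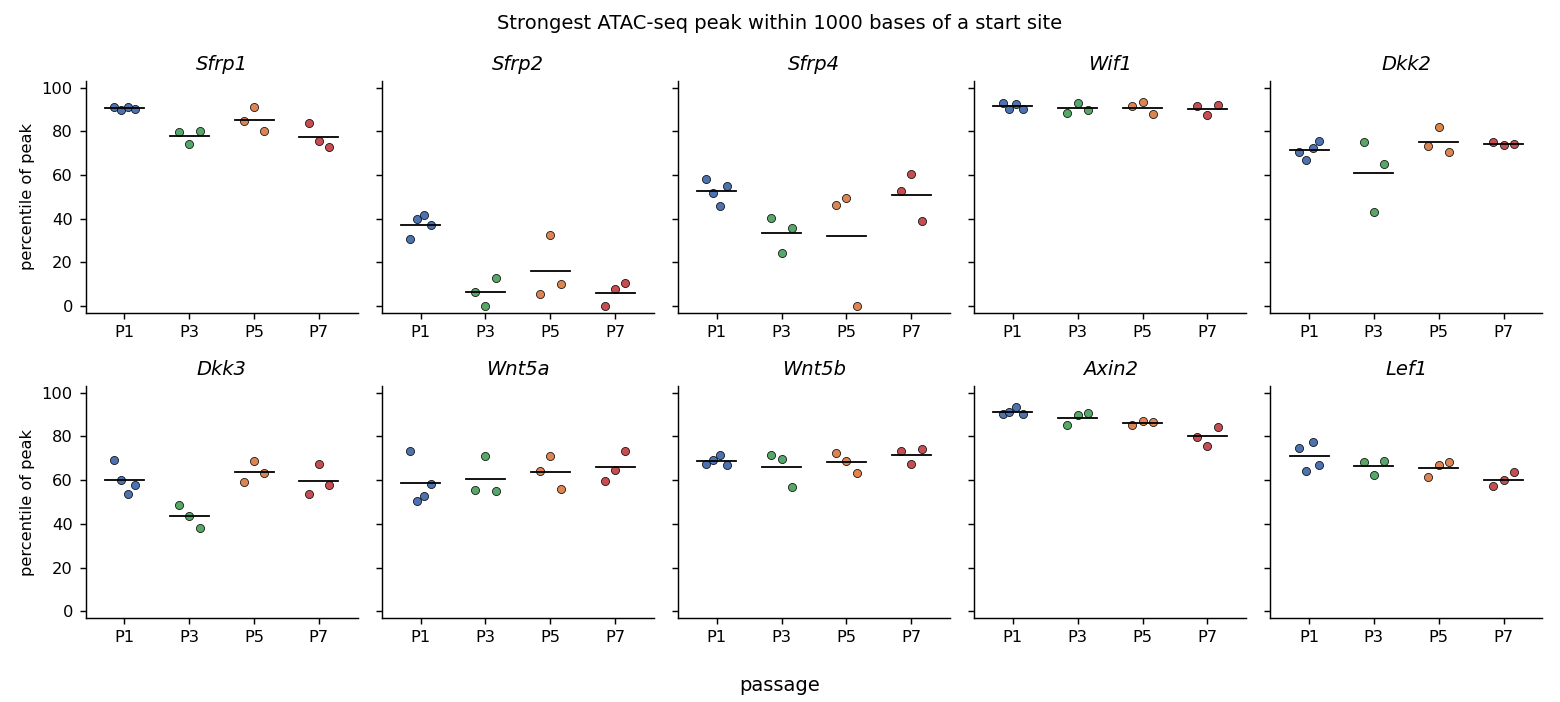
Percentile of the strongest ATAC-seq peak near the start sites of the 10 genes, with 1 point per sample (4 at P1 and 3 at each later passage) and a bar at the mean. Sfrp2 has a mean of 37.3 at P1 and of 6.19 at P7, and Wif1 stays between 87.2 and 93.3.

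Within 20 kb of the 10 genes, 191 merged peaks were found. Of these, 7 (3.66%) were called in no P1 sample and in all P7 samples, and 0 the other way round, where 5.14% and 0.868% of 306858 merged peaks of the genome were. They lay near Wnt5b (3), Dkk3 (2), Sfrp1 (1) and Wif1 (1). The central 200 bases of 2 of them are shown since they are the ones that held an AP-1 match, in an intron of Dkk3, 17810 bases from the nearest start site (chr7:112140786-112140985), and beyond the end of Wif1, 68792 bases from its start site (chr10:121102696-121102895). Both are the + strand of GRCm38, with the match in capitals.
Dkk3: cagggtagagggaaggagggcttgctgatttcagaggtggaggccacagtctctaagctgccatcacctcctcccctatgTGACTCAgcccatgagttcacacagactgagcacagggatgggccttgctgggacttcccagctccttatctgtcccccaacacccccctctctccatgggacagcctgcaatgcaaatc
Wif1: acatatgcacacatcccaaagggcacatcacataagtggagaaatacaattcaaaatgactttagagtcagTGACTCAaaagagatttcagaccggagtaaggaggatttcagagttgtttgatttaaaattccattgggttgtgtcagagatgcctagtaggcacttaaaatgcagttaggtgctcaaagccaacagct

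The Dkk3 peak had a mean percentile of 0 (P1), 16.3 (P3), 24.9 (P5) and 42.3 (P7), and the Wif1 peak was called only in the P7 samples, with a mean of 39.5 ± 15.7. TEAD letters were in the peak beyond Sfrp1 and in the other Dkk3 peak, and the 3 Wnt5b peaks, all intronic, held none of the motifs. Of all peaks 17.4% held an AP-1 match in their central 200 bases and 17.6% a TEAD match, and of the 15775 peaks called in all P7 and no P1 samples 16.8% and 23.3% did.

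The controls of the intervention experiments differed in level from the passages and from each other. Dkk2 had a mean of 30.3 CPM with the vector and of 21.7, 15.8 and 27.03 CPM in the nt libraries of the E2f4, Tead1 and Atf3 experiments, against 93.3 to 244 CPM over the passages. Sfrp1 had a mean of 401, 134, 93.8 and 293 CPM in the same 4 controls, against 31.6 to 81.8 CPM. These values stand side by side only. Each experiment was scaled separately, and the intervention cells also carried lentivirus and may have come from mice of another age. The part of each of these in the levels was not tested.

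E2f4 overexpression was the first intervention, and E2f4 itself, a repressor-type E2F factor of the cell cycle, was at 35.5 and 47.5 CPM with the vector and at 1118 and 1180 CPM with the construct. Dkk2 was at 30.3 and 30.3 CPM with the vector and at 3.16 and 3.68 CPM with E2f4 (log2 fold change -3.15, SE 0.16). Sfrp4 was at 3.32 and 3.34 CPM and at 0.618 and 0.287 CPM (-2.81, SE 0.37). Both were lower by more than 2-fold, 2 of 9 genes, where 19.1% of all 13199 genes tested were past that fold in either direction, and nothing is read from the count since the list was drawn up with this contrast known.

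Sfrp1 and Sfrp2 were higher with E2f4. Sfrp1 was at 418.8 and 383.2 CPM with the vector and at 656.3 and 701.7 CPM with E2f4 (0.76, SE 0.10), and Sfrp2 at 15.02 and 16.02 CPM and at 24.4 and 27.7 CPM (0.75, SE 0.14). Dkk3 was lower, at 155.3 and 161.0 CPM and at 109.6 and 104.8 CPM (-0.56, SE 0.10). Axin2 was at 4.32 and 4.84 CPM and at 6.07 and 7.41 CPM (0.56, SE 0.20), and Wnt5b also lay above its vector libraries, while Wnt5a and Lef1 overlapped. Wif1 did not pass the filter. The antagonists thus split, with Sfrp1 and Sfrp2 on one side and Dkk2, Sfrp4 and Dkk3 on the other.

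The other pathway genes lie outside the list of 10, but they too were listed with earlier results of these data known. Of 65 tested, 22 were higher and 21 lower with E2f4, where 3821 and 3727 of all 13199 genes tested were. Among 14 tested extracellular and membrane modulators 10 were lower and 2 higher (median log2 fold change -0.88, against 0.01 over all genes tested). Lgr5 (-2.11, SE 0.14, adjusted p = 3.47e-06 by edgeR), Rspo2 (-1.68, SE 0.15) and Rspo3 (-1.25, SE 0.17) were among the lower ones. Of 20 intracellular genes 9 were higher and 3 lower, with Dvl2, which relays the receptor signal, among the higher ones (0.99). Of 15 tested receptors 7 were higher and 4 lower, and of 9 tested targets and feedback genes 2 were higher and 3 lower. Of the ligands, Wnt10b rose (1.90, SE 0.21) and Wnt2 fell (-1.71, SE 0.26). Proliferation genes moved too, with 6 of 8 higher and sums of 848 to 853 CPM and of 1370 to 1470 CPM. The 8 skeletal muscle genes summed to 66.8 to 76.5 CPM with the vector and to 23.0 to 24.2 CPM with E2f4 (1 of 2 tested lower, Myh3, Myod1, Myog and Pax7 at 0 in both). The 6 endothelial genes summed to 4.02 to 4.90 CPM and to 9.08 to 9.34 CPM (1 of 3 tested higher, Vwf at 0 with the vector). Of the 9 fibroblast genes 4 were lower and 1 higher, with sums of 25600 to 28500 CPM and of 25600 to 25800 CPM. The part of growth or of other cells in these levels was not tested.

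With hairpin sh1, E2f4 was at 59.6, 60.8 and 59.6 CPM with nt and at 21.6, 20.4 and 21.8 CPM with sh1 (log2 fold change -1.50, SE 0.09, adjusted p = 2.14e-07). Sfrp1 and Dkk3 rose, 2 of 7 genes tested, where 17.8% of all 12310 genes tested passed (1233 higher and 959 lower). Sfrp1 was at 136.7, 137.4 and 128.6 CPM with nt and at 244.7, 247.3 and 277.8 CPM with sh1 (log2 fold change 0.93, SE 0.07, adjusted p = 9.83e-07). Dkk3 was at 132.8, 139.8 and 123.2 CPM and at 164.0, 171.1 and 174.5 CPM (0.37, SE 0.07, adjusted p = 0.00168 by edgeR).

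Dkk2 did not pass, at 21.4, 21.5 and 22.4 CPM with nt and 23.0, 25.4 and 28.5 CPM with sh1 (log2 fold change 0.24, 2 SE interval 0.01 to 0.46, adjusted p = 0.162). Lef1 was at 3.59, 3.25 and 3.10 CPM and at 2.39, 1.42 and 1.20 CPM, without overlap, and just missed the threshold (-0.96, SE 0.32, adjusted p = 0.0517). Sfrp4, Wif1 and Axin2 did not pass the filter on low counts. Sfrp1 was thus above its controls both with added E2f4, in pre-senescent cells, and with reduced E2f4, in proliferating cells, 2 experiments with separate controls. Here 4 of 13 modulators were higher and none lower, among them Rspo3 (1.15, SE 0.31), Frzb (0.61, SE 0.14) and Lgr5 (0.35, SE 0.06), and 7 of 8 proliferation genes were lower, with sums of 722 to 771 CPM and of 518 to 554 CPM. The skeletal muscle genes summed to 74.9 to 77.3 CPM with nt and to 112 to 137 CPM with sh1 (1 of 2 tested higher, Myod1 and Myog at 0 in both), the macrophage genes to 4.73 to 9.03 CPM and to 10.7 to 14.9 CPM (1 of 2 tested higher), and the fibroblast genes to 35500 to 36600 CPM and to 27100 to 30400 CPM (2 of 9 higher and 3 lower). Their part in the levels of Sfrp1 and Dkk3 was not tested.

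Tead1, a DNA-binding partner of YAP and TAZ in the Hippo pathway, was at 572.1, 507.9 and 544.5 CPM with nt, 267.9, 284.1 and 284.9 CPM with sh3 and 315.4, 313.3 and 320.4 CPM with sh4 (log2 fold changes -0.96 and -0.78, SE 0.04 each). Dkk2, Dkk3 and Lef1 rose and Axin2 fell with each hairpin, and both comparisons share the 3 nt libraries. By the paper's hairpin sequences, sh3 and sh4 target the same stretch of Tead1, shifted by 1 base. They are therefore not independent hairpins, and their agreement cannot set effects on other transcripts apart from those of Tead1. With sh3 these were 4 of 10 genes (3 higher and 1 lower, where 35.4% of all 13012 genes tested passed, 2294 higher and 2307 lower), and with sh4 5 of 10, with Sfrp2 added (29.1% of all genes, 1871 higher and 1917 lower).

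Axin2 was at 3.29, 4.76 and 3.83 CPM with nt, 1.25, 1.60 and 1.31 CPM with sh3 and 2.73, 2.81 and 1.78 CPM with sh4, with both hairpins below all nt libraries. The log2 fold changes were -1.51 (SE 0.25, adjusted p = 1.33e-05) and -0.70 (SE 0.23, adjusted p = 0.0194). Lef1 was at 6.01, 5.33 and 6.46 CPM with nt, 8.15, 12.5 and 9.91 CPM with sh3 and 8.30, 9.74 and 6.79 CPM with sh4, or 0.78 (SE 0.15, adjusted p = 0.000156) and 0.48 (SE 0.16, adjusted p = 0.0214). The 2 targets of the pathway therefore went in opposite directions.

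Dkk2 was at 15.95, 15.42 and 15.92 CPM with nt, 17.0, 22.9 and 23.6 CPM with sh3 and 22.0, 20.8 and 23.0 CPM with sh4, and Dkk3 at 141.3, 137.8 and 132.9, at 170.6, 190.2 and 196.3 and at 173.1, 183.5 and 177.6 CPM. All hairpin libraries were above all nt libraries for both genes. The log2 fold changes were 0.43 and 0.48 for Dkk2 (adjusted p = 0.000965 and 0.000382 by edgeR) and 0.44 and 0.38 for Dkk3 (adjusted p = 1.24e-08 and 3.37e-07 by edgeR). Sfrp2 was at 1.73, 1.59 and 0.414 CPM with nt, 2.11, 1.88 and 2.40 CPM with sh3 and 2.32, 3.30 and 2.05 CPM with sh4. It passed with sh4 (log2 fold change 1.05, adjusted p = 0.0151) and not with sh3 (0.79, adjusted p = 0.0697), and a difference between the hairpins was not shown for it (0.26, adjusted p = 0.688, 2 SE interval -0.34 to 0.87).

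Between sh4 and sh3, 0 of 10 genes passed by edgeR and 0 by DESeq2, where 7.37% of all genes did by edgeR, and 2 had an unadjusted p under 0.05, Axin2 (adjusted p = 0.0566) and Lef1 (adjusted p = 0.243). Tead1 itself was higher with sh4 than with sh3 (log2 difference 0.18, SE 0.04, adjusted p = 0.00625 by edgeR). That call was lost without sh3 replicate 1 (adjusted p = 0.0556). The sh4 calls of Axin2, Lef1 and Sfrp2 each depended on single libraries. Without nt replicate 2 the adjusted p was 0.129 for Axin2 and 0.0804 for Lef1, without nt replicate 3 it was 0.138 for Sfrp2, without sh4 replicate 2 it was 0.106 for Sfrp2 and 0.147 for Lef1, and without sh4 replicate 3 it was 0.137 for Axin2. Of 63 other pathway genes, 21 were higher and 20 lower with sh3, where 2294 and 2307 of all 13012 genes tested were. With sh4 these were 16 and 15, where 1871 and 1917 of all genes were. Ccnd1, a cyclin and target, rose (log2 fold changes 0.93 and 0.93), and so did Fzd1 (0.69 and 0.54), while Apcdd1 (-0.56 and -0.48) and the ligand Wnt4 (-0.79 and -0.58) fell.

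Marker lists moved with the Tead1 hairpins as well. The 8 skeletal muscle genes summed to 98.6 to 99.7 CPM with nt, 65.2 to 75.0 CPM with sh3 (2 of 2 tested lower) and 73.2 to 83.8 CPM with sh4 (1 of 2 lower), with Myod1 and Myog at 0 in all 3 groups. Of the 9 fibroblast genes 5 were higher and 2 lower with sh3 and 3 higher and 3 lower with sh4, with sums of 32200 to 33200, 31200 to 32000 and 29600 to 30600 CPM. Of the 8 proliferation genes 3 were higher and 2 lower with sh3 and 5 higher with sh4, with sums of 616 to 646, 644 to 649 and 720 to 762 CPM. The part of these in the Wnt genes was not tested.

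Atf3, an AP-1 factor induced by stress, was a scarce transcript in the last experiment, at 3.31, 2.85 and 2.77 CPM with nt, 1.46, 2.10 and 0.451 CPM with sh5 and 1.51, 1.56 and 2.09 CPM with sh6. All hairpin libraries were below all nt libraries, with log2 fold changes of -1.14 (adjusted p = 0.0447) for sh5 and -0.79 (adjusted p = 0.114, not passed) for sh6. Leaving out any 1 nt library or sh5 replicate 1 ended the sh5 call (adjusted p = 0.0764 to 0.115), and so did a fit of sh5 and nt alone (adjusted p = 0.092). The hairpins differed in the Wnt genes. With sh6, Sfrp1, Sfrp2, Sfrp4, Dkk2, Dkk3, Axin2 and Lef1 fell and Wnt5a rose, 8 of 9 genes tested (7 lower and 1 higher, where 49.8% of all 13345 genes tested passed, 3466 lower and 3176 higher). With sh5, Sfrp1, Dkk2 and Wnt5a rose and Lef1 fell, 4 of 9 (35.9% of all genes passed, 2365 higher and 2420 lower). Both comparisons share the nt libraries.

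Sfrp2 was at 8.31, 5.82 and 8.54 CPM with nt, 9.05, 8.14 and 8.29 CPM with sh5 and 1.10, 0.659 and 1.16 CPM with sh6. The log2 fold change for sh6 was -2.95 (SE 0.24, adjusted p = 4.43e-06), and for sh5 it was 0.16 and did not pass (2 SE interval -0.22 to 0.55). Sfrp1 was at 313.1, 281.2 and 284.0 CPM with nt, 383.6, 393.9 and 404.8 CPM with sh5 and 105.9, 90.4 and 141.9 CPM with sh6, so it rose with one hairpin (0.43, SE 0.14, adjusted p = 0.0319) and fell with the other (-1.38, SE 0.14, adjusted p = 1.96e-05). Dkk2 did the same, at 24.4, 29.4 and 27.3 CPM with nt, 49.9, 46.5 and 59.3 CPM with sh5 and 15.98, 17.7 and 17.1 CPM with sh6 (0.94, SE 0.11, and -0.68, SE 0.12).

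Lef1 and Wnt5a moved one way with both. Lef1 was at 8.70, 10.8 and 9.19 CPM with nt, 5.69, 7.27 and 4.79 CPM with sh5 and 3.43, 3.18 and 3.20 CPM with sh6 (-0.69, adjusted p = 0.0122, and -1.54, adjusted p = 5.62e-05). Wnt5a was at 106.6, 102.7 and 100.4 CPM, 160.9, 132.5 and 139.4 CPM and 179.0, 187.8 and 189.7 CPM (0.48, adjusted p = 0.00236, and 0.85, adjusted p = 1.59e-05). Dkk3 fell with sh6 from 193 ± 9.37 to 101 ± 5.01 CPM (-0.93, SE 0.08), Sfrp4 from 1.52 ± 0.119 to 0.315 ± 0.225 CPM (-2.26, SE 0.47) and Axin2 from 1.42 ± 0.225 to 0.509 ± 0.176 CPM (-1.47, SE 0.43). Axin2 lost its call without nt replicate 1, sh6 replicate 2 or sh6 replicate 3 (adjusted p = 0.0538, 0.0508 and 0.0617). Sfrp1 lost its sh5 call without any nt library or without sh5 replicate 1 or 2 (adjusted p = 0.05 to 0.105), and Lef1 lost its own without nt replicate 2 (adjusted p = 0.058).

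Tested directly, sh6 against sh5, 8 of 9 genes passed (7 lower and 1 higher, where 52.6% of all genes did, 3551 lower and 3462 higher). Wnt5b alone did not (log2 difference -0.49, adjusted p = 0.243). The differences were -3.11 for Sfrp2, -2.33 for Sfrp4, -1.94 for Axin2, -1.81 for Sfrp1, -1.62 for Dkk2, -0.97 for Dkk3, -0.86 for Lef1 and 0.36 for Wnt5a. Atf3 itself was not shown to differ between the hairpins (0.35, 2 SE interval -0.48 to 1.18, adjusted p = 0.504).

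Other measures moved with sh6. The 9 fibroblast genes summed to 39000 to 40700 CPM with nt, 25400 to 37600 CPM with sh5 and 17100 to 17900 CPM with sh6, with 6 of 9 lower and none higher with sh6 and none at 0. The 8 skeletal muscle genes summed to 38.1 to 39.5, 14.6 to 18.1 and 197 to 217 CPM, with 2 of 4 tested higher and 2 lower with sh6 and Myog and Pax7 at 0 with sh6. E2f4 was at 39.8 ± 2.90 CPM with nt and at 63.5 ± 3.91 CPM with sh6 (log2 fold change 0.67, adjusted p = 0.000311). The part of these in the Wnt genes was not tested. Of the other pathway genes, 11 of 13 modulators were lower with sh6 and none higher (Rspo2 -2.47, Rspo3 -2.37, Lgr5 -1.54), and 8 of 14 receptors were lower (Fzd2 -1.73, Fzd1 -1.70, Fzd8 -1.35) with 1 higher. Of 8 tested targets and feedback genes 3 were higher and 4 lower with sh6, and 2 were higher and 2 lower with sh5. Among them Nkd1, an inhibitor of Dvl, fell with both hairpins (-1.79 with sh5 and -3.49 with sh6), and Apcdd1 was higher with sh6 (0.85). Of all 61 other pathway genes tested, 7 were higher and 33 lower with sh6, where 3176 and 3466 of all 13345 genes were. With sh5 these were 9 and 20, where 2365 and 2420 of all genes were. Of 13 modulators 3 were higher and 2 lower with sh5.

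**Figure D3:**
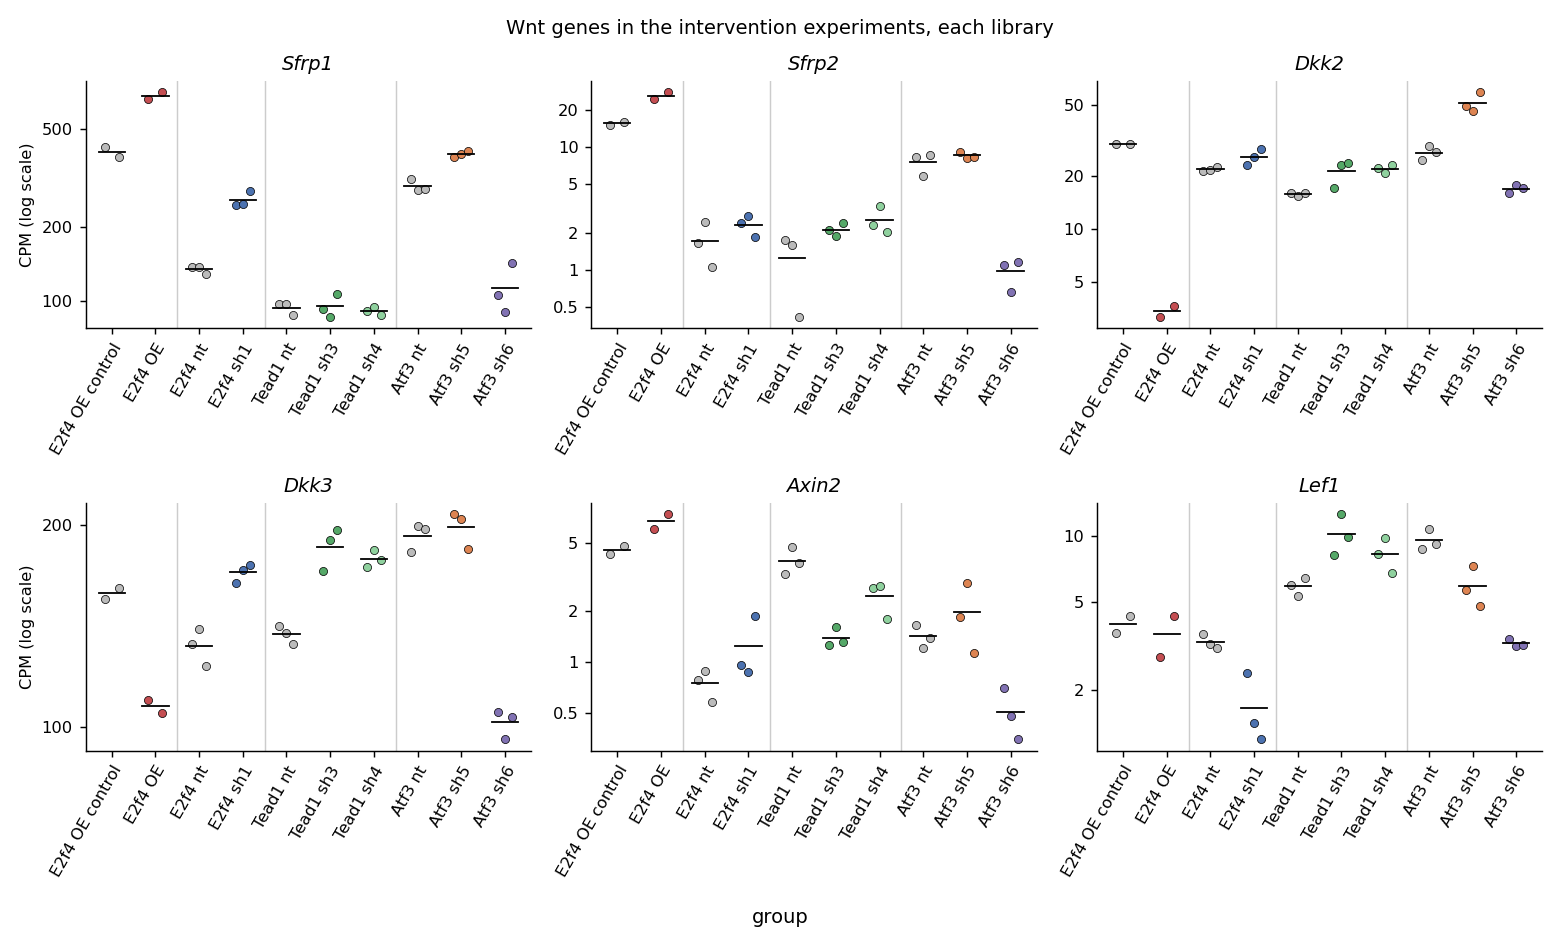
Levels of 6 of the genes in the intervention experiments, in CPM on a log axis, with 1 point per library (2 or 3 per group), a bar at the mean and lines between experiments. Dkk2 is at 3.16 and 3.68 CPM with E2f4, and Sfrp1 is above its controls with both E2f4 interventions.

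**Figure D4:**
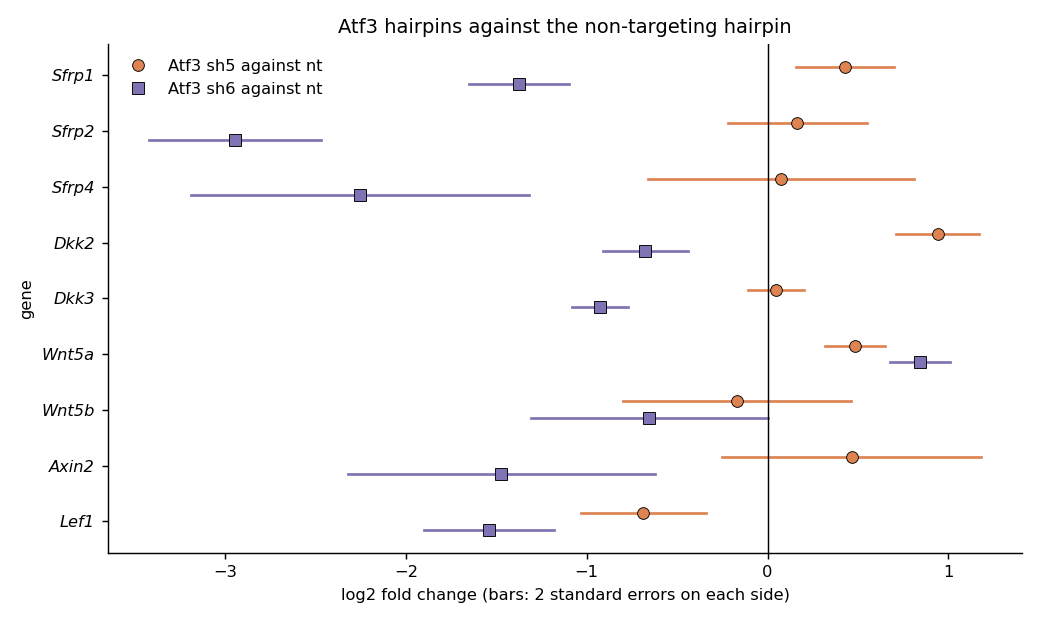
Log2 fold change of 9 genes with each Atf3 hairpin against the same 3 nt libraries, as points with bars of 2 standard errors on each side. Sfrp1 and Dkk2 lie on opposite sides of 0 for the 2 hairpins, and Lef1 and Wnt5a on the same side.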

How the data were processed

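RNA was measured by RNA-seq in 44 libraries of mouse skin fibroblasts and open chromatin by ATAC-seq in 13 samples. The deposited counts are whole reads per gene: per the paper's methods and the labels, trimming was by Trimmomatic 0.39, mapping by HISAT2 2.2.1 on the mm10 build, and the unstranded tally of reads by HTSeq 0.12.4, all run by the authors. The deposited peak lists were called per sample with MACS2 and give a score, a fold enrichment (ratio) and -log10 p and -log10 q for each peak; they hold no read counts, so the ATAC-seq depth is unknown. Rows naming no gene held 7.50 to 16.8% of the counts in the 28 intervention libraries and were left out. The methylation files were not analysed here.

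The 10 genes and the gene lists were chosen with earlier results of these data known. Each experiment was filtered (filterByExpr), TMM-scaled and fitted on the whole table with edgeR 4.0.16 (quasi-likelihood test, Benjamini-Hochberg adjustment, threshold 0.05) in R 4.3.3. Intervals are the fold change with 2 SE on each side. Log2 CPM used a prior count of 2. Each peak was ranked by -log10 p within its sample, and start sites came from RefSeq on GRCm38.p6, where 24435 of 24984 genes matched by symbol. Named were the 10 genes, the targeted genes, at most 3 other pathway genes per class with the largest change among those passing at a mean of at least 1 CPM, marker genes at 0 and the 5 genes most like Sfrp2 and Dkk2. The fit was tested on simulated data. Alternatives were DESeq2 1.42.0, other filters, scaling and windows, a replicate block and leaving out each library. Same-numbered libraries were checked for pairing, did not all deviate together and were not treated as paired. No pair of replicates agreed within sampling noise (chi-square over degrees of freedom 2.74 to 59.9). The levels of Sfrp4, Wif1, Axin2, Wnt5b and Lef1 rest on few counts per library and are the least precise.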

Additional observations from a re-analysis of the deposited data

Results flagged for a closer look

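Among the 50 gene and group combinations with 4 libraries or samples that were checked for 1 value far from the others, 4 were found, and chance flags about 1 in 20. At P7, Dkk3 was at 370 CPM in replicate 4 and at 298 to 306 CPM in the other libraries, and Axin2 was at 4.01 CPM in replicate 4 and at 1.76 to 2.08 CPM in the others. At P5, Wnt5a was at 68.6 CPM in replicate 4 and at 82.5 to 84.2 CPM in the others. At P3, Axin2 was at 1.10 CPM in replicate 2 and at 1.64 to 1.74 CPM in the others.

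The effects of the hairpins sh6 and sh5 against Atf3 differed for 8 genes by edgeR's test of the difference with Benjamini-Hochberg adjustment. The log2 difference, sh6 less sh5, was -1.81 for Sfrp1, -3.11 for Sfrp2, -2.33 for Sfrp4, -1.62 for Dkk2, -0.97 for Dkk3, 0.36 for Wnt5a, -1.94 for Axin2 and -0.86 for Lef1.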

How the results depend on the processing

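The direction and call of most values held. Of 659 single-gene RNA values under other settings, 647 did so, 10 came to pass and 2 no longer passed, and of 754 with 1 library left out, 692 held, 9 came to pass, 24 no longer passed, 25 tested values changed sign and 4 with no test moved by more than the spread between libraries. None of those that changed sign passed the test under any of the settings run.

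The labels do not say that a replicate number marks a shared culture or day, and not every correlation of deviations between same-numbered libraries was over 0.1, so the samples were not treated as paired. Over the passages these correlations were -0.262 to 0.276, those of number 4 were 0.105 to 0.276, and 27 of 48 were best with their own number, a hint from the data and not the design that some libraries may belong together. With the replicate number as a block, 7 genes passed from P1 to P3 in place of 5, with Wnt5a and Lef1 added, and 2 from P3 to P5 in place of 1, with Dkk3 added. Lef1 also came to pass with E2f4 sh1, and Atf3 itself no longer passed with sh5 (adjusted p = 0.0552). With at least 10 counts required, the E2f4 overexpression contrast held 1 gene past 2-fold in place of 2, and with no filter 1 gene passed between the Tead1 hairpins in place of 0. Leaving out 1 library gave 0 to 2 genes from P3 to P5, 2 to 4 past 2-fold from P5 to P7, 3 to 5 for Tead1 sh4, 0 to 1 between the Tead1 hairpins and 2 to 4 for Atf3 sh5.

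For the tested values whose sign changed when 1 library was left out, the log2 fold changes covered these ranges. From P3 to P5 they were -0.36 to 0.18 for Wif1, -0.094 to 0.041 for Dkk2 and -0.11 to 0.18 for Wnt5b. With Tead1 sh3 they were -0.071 to 0.085 for Sfrp1 and -0.10 to 0.24 for Wnt5b, and with sh4 -0.48 to 0.26 for Sfrp4, -0.001 to 0.044 for Wnt5a and -0.21 to 0.12 for Wnt5b. Between these hairpins they were -0.129 to 0.027 for Sfrp1, -0.059 to 0.304 for Wif1, -0.084 to 0.134 for Dkk2 and -0.29 to 0.03 for Wnt5b. With Atf3 sh5 they were -0.10 to 0.17 for Sfrp4 and -0.559 to 0.044 for Wnt5b, and between the Atf3 hairpins -0.069 to 0.834 for Atf3 itself. Among the values with no test, the sign changed for Wnt5b from P1 to P7 (-0.235 to 0.041) and for Lef1 with E2f4 overexpression (-0.473 to 0.134).

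For the ATAC-seq percentiles the ranges were -6.59 to 4.11 points for Sfrp4, -2.13 to 0.32 for Wif1 and -4.53 to 2.35 for Dkk3. With windows of 500 bases the differences of Dkk2 and Dkk3 were -20.18 and 7.38 points, with -log10 q of at least 5 Dkk3 was at 0.72, and by fold enrichment Sfrp4 and Wif1 were at 9.38 and 0.79. The cause of these changes was not tested. Leaving out 1 ATAC-seq sample allows no exact p below 0.0667 or 0.10.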

Other observations

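The library numbered 4 was the lowest for Sfrp1 and the highest for Dkk3 at each of the 4 passages. Over the 12489 genes with a mean of at least 1 CPM, number 4 was the lowest at every passage for 247 genes (1.98%) and the highest for 282 (2.26%). For numbers 1 to 3 these counts were 29 to 36 and 34 to 59. The labels give the number only as a replicate.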
